A study of Pinus pinaster with 6 samples.

Results

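Chitinases are enzymes that cut chitin, the polymer of fungal cell walls. Plants do not make chitin, and their chitinases are counted among the pathogenesis-related proteins, which root cells make at rest and in larger amounts during fungal attack. Class IV chitinases are a group of small secreted forms that are well known from conifers, where they accumulate in tissues challenged by fungi. In maritime pine (Pinus pinaster), 4 transcripts carrying the name class IV chitinase, pp_117809, pp_239593, pp_239598 and pp_239600, were taken from the study's list of transcripts that differed between ammonium and water, and are described here among the 46658 transcripts of the root table. The levels of these 4 in ammonium against water were what placed them on that list (edgeR, FDR below 0.05), so those levels are given as a description, with no test. The other chitinases and antifungal proteins of the table, which were not chosen that way unless stated, were tested.

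The libraries were direct RNA sequencing (DRS) libraries of whole roots from maritime pine seedlings 1 month old. Both groups were moved to seedbeds, watered, and left for 3 days. The water group then received 80 mL of water (3 libraries, C1 to C3) and the ammonium group 80 mL of a 3 mM NH4Cl solution (3 libraries, N1 to N3), and roots were taken after 24 h. The experiment was repeated independently, and the labels do not state how many seedlings a library held. No genotype differed between the groups, and both were grown on vermiculite and distilled water from the same seed source. DRS reads native poly(A) RNA, so 1 read stands for 1 RNA molecule. Levels are therefore in CPM (reads scaled to library size, as deposited) and were not divided by transcript length.

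Each CPM value stood for a whole number of reads, and library totals ran from 1270378 in C1 to 5416076 in N3, a 4.26-fold range. In C1, 1 read was worth 0.767 CPM, against 0.178 CPM in N3, so low transcripts were least precise in C1. Transcripts matching green tissue genes (6 of 13 listed were in the table) summed to 530 to 716 CPM in the water libraries and to 428 to 584 CPM in the ammonium libraries, and those best matching oomycetes (4 of 5) to 108 to 122 CPM and 117 to 136 CPM. The groups overlapped in both sums. No defining root marker is paired with a transcript ID in the sources used here, so the tissue was taken from the labels. Whole roots were sampled, so more cells of a type and more RNA per cell cannot be told apart in any difference below.

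All 4 class IV chitinases have the same best match in Arabidopsis thaliana, AT2G43590.1, a chitinase family protein. Other forms described below share this match, among them pp_239594 and pp_117807, which is named a class I form. The match therefore does not mark out the 4 or their class. The 4 fall in 2 runs of neighbouring IDs. pp_117809 (assigned to sp_v3.0_unigene33729) lies in the first, from pp_117799 to pp_117816. The other 3 lie in the second, from pp_239593 to pp_239601, where pp_239598 and pp_239600 are both assigned to sp_v3.0_unigene17180 and pp_239593 to sp_v3.0_unigene4500. In the first run, pp_117810 is also assigned to sp_v3.0_unigene17180 and pp_117805 to sp_v3.0_unigene4500, so these unigenes do not separate the runs. Forms of 1 unigene may be splice forms or near-identical copies of 1 gene. The authors' counting may have split reads among such forms, so the 4 levels are not 4 independent measurements.

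pp_117809 was the most abundant of the 4. Its level was 62.1 CPM in C1, 65.1 in C2 and 68.9 in C3, and 86.4, 114 and 121 in N1 to N3. All 3 ammonium libraries lay above all 3 water libraries, with 17.5 CPM between the groups, and N1 was the lowest of the ammonium libraries. The mean was 65.4 ± 3.39 CPM in water and 107 ± 18.2 CPM in ammonium (SD, n = 3 each), a 1.64-fold ratio and a log2 fold change of 0.69 on log2(CPM + 1). In level it stood above 94.3% of the transcripts in water and above 97.0% in ammonium.

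pp_239593 had 17.6 CPM in C1, 12.5 in C2 and 19.4 in C3, and 41.9, 25.8 and 34.6 in N1 to N3. The ammonium libraries again lay above the water libraries, 6.37 CPM apart, but here N1 was the highest. The mean was 16.5 ± 3.61 CPM in water and 34.1 ± 8.05 CPM in ammonium (SD, n = 3 each), a 2.06-fold ratio, the largest of the 4, and a log2 fold change of 1.00.

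pp_239598 was nearly flat among the water libraries, at 11.5 CPM in C1, 12.5 in C2 and 12.6 in C3. In ammonium it had 28.6, 19.0 and 26.7 CPM in N1 to N3. The groups did not overlap, and N1 was again the highest. The mean was 12.2 ± 0.594 CPM in water and 24.8 ± 5.09 CPM in ammonium (SD, n = 3 each), a 2.03-fold ratio and a log2 fold change of 0.95.

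pp_239600 was the least abundant, at 7.67 CPM in C1, 7.57 in C2 and 10.6 in C3, and 17.9, 13.01 and 15.7 in N1 to N3. The groups did not overlap, but the gap between C3 and N2 was only 2.41 CPM. The mean was 8.61 ± 1.72 CPM in water and 15.5 ± 2.43 CPM in ammonium (SD, n = 3 each), a 1.80-fold ratio and a log2 fold change of 0.78. This transcript rested on few reads, from 10 in C1 to 88 in N3. The 10 reads of C1 had an exact 95% Poisson interval of 3.68 to 14.1 CPM, which reaches past the level of N2. For pp_117809 the reads ran from 81 in C1 to 677 in N3. The intervals cover counting error only.

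**Figure D1:**
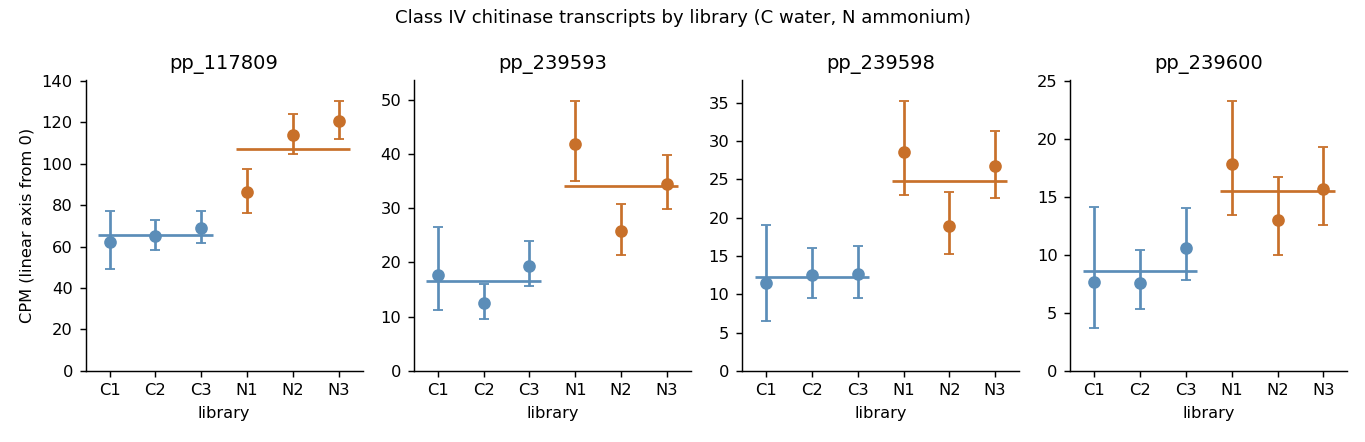
CPM of the 4 class IV chitinase transcripts in each library on linear axes that start at 0 and differ between panels. Points are libraries (blue, water, orange, ammonium), bars exact 95% Poisson intervals of the reads and lines group means; in each panel the ammonium points lie above the water points, and N1 is the lowest ammonium point for pp_117809 (86.4 CPM) and the highest for pp_239593 (41.9 CPM).

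The separation of the groups was what the choice of transcripts favoured. Over all transcripts, 7.16% had every ammonium library above every water library and 6.94% the reverse, and nothing is read from the 4 of 4 seen here. Among all transcripts, 1.85% had a log2 fold change at least that of pp_117809, the smallest of the 4. The median over the 4 was 0.87, against 0.00 over all transcripts. The 4 stayed above 0 in each of 16 other settings and library choices, where pp_117809 ran from 0.60 to 0.84, pp_239593 from 0.82 to 1.18, pp_239598 from 0.80 to 1.12 and pp_239600 from 0.62 to 0.93. Their groups did not overlap, so leaving out libraries could not turn the sign, and nothing is read from its being kept.

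The study's threshold passed between closely related forms of the second run. pp_239600 was the member nearest to it. Just outside it stood pp_239601 and pp_239594, both matched to class IV chitinase A of western white pine (Pinus monticola). pp_239601 had 6.14, 5.73 and 6.85 CPM in C1 to C3 and 15.3, 10.02 and 10.7 CPM in N1 to N3, a log2 fold change of 0.83. pp_239594 had 16.9, 10.02 and 11.7 CPM in C1 to C3 and 21.4, 17.9 and 22.5 CPM in N1 to N3, a log2 fold change of 0.66. Neither overlapped between groups, and pp_239601 had a larger log2 fold change than pp_239600.

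The order of the 4 by level was the same in both groups. pp_117809 was far above the rest in every library. pp_239593 followed, but its range overlapped that of pp_239598 in water and in ammonium, and both had 61 reads in C2. pp_239600 was last in every library, with a range that did not reach that of pp_239598 in either group. The ranges differed in width. The coefficient of variation was 5.19% for pp_117809 and 4.88% for pp_239598 among the water libraries but 17.0% and 20.6% among the ammonium libraries, while pp_239593 had 21.9% and 23.6% and pp_239600 20.0% and 15.7%.

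Summed, the 4 had 99.0, 97.6 and 112 CPM in C1 to C3 and 175, 172 and 198 CPM in N1 to N3. The sum was steadier among the ammonium libraries than its parts, with 103 ± 7.68 CPM in water and 181 ± 14.2 CPM in ammonium (SD, n = 3 each), 1.77-fold. pp_117809 supplied 63.7% ± 2.58 of the sum in water and 59.0% ± 8.66 in ammonium (SD, n = 3 each). Its share lay between 61.0% and 66.7% in 5 libraries and was 49.4% in N1, where pp_239593 took 24.0%, pp_239598 16.4% and pp_239600 10.2%, each its highest share in any library. The ratio of pp_117809 to the 3 forms of the second run was 1.69, 2.00 and 1.62 in C1 to C3 and 0.978, 1.97 and 1.57 in N1 to N3.

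**Figure D2:**
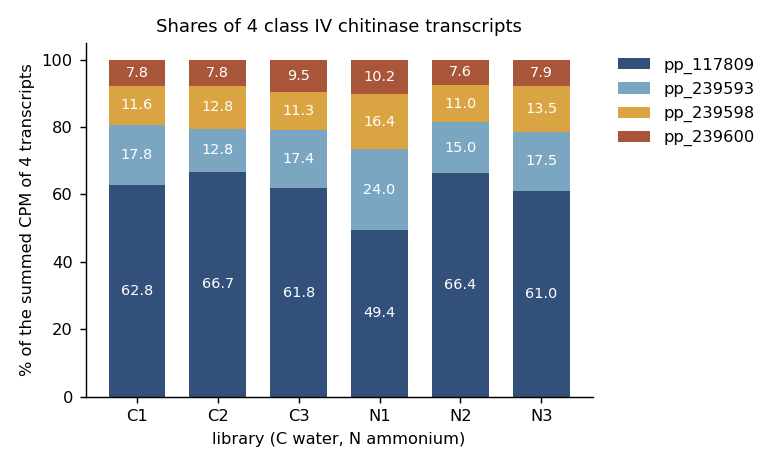
Share of each of the 4 transcripts in their summed CPM, in percent, for each library (bars add up to the whole). pp_117809 has 49.4% in N1 and between 61.0% and 66.7% in the other 5 libraries, and the 3 forms of the second run fill the difference in N1.

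The split in N1 followed the 2 runs of IDs, beyond the 4. The table holds 17 transcripts of the first run and 8 of the second. Among the ammonium libraries, N1 was the lowest for 13 of the 17 transcripts of the first run and the highest for 2, and it was the highest for 7 of the 8 of the second run and the lowest for 0. These counts, and the medians of the runs below, include the 4. pp_117809 is among the 13, and pp_239593, pp_239598 and pp_239600 are among the 7. Over all transcripts N1 was the highest in 37.9% and the lowest in 37.9%. On log2(CPM + 1), N1 minus the mean of N2 and N3 had a median of -0.44 in the first run, 0.50 in the second and 0.00 over all transcripts. This pattern was noticed in the values and was not tested, forms of 1 run may share reads, and N1 was also the shallowest ammonium library, with 2947096 reads, whose part in it was not tested.

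The ends of the 2 runs were set by chitinase names in the study's tables, some given only where rows are sorted by the p-value of this contrast. Within the 2 runs, 21 transcripts beside the 4 were in the table. Of these, 7 are named as chitinases in tables of modified positions or proteins, which were not chosen by this contrast of transcript levels but need reads or protein enough to be listed, 7 are named only in a part of the study's table that is sorted by the p-value of this contrast, and 7 carry no name in the sources used here. They held far more RNA than the 4, with 1958 ± 210 CPM in water and 2403 ± 210 CPM in ammonium (SD, n = 3 each). The 4 made up 5.01% ± 0.449 of the CPM of both runs in water and 7.02% ± 0.194 in ammonium (SD, n = 3 each). The choice of the 4 on this contrast favoured a larger share in ammonium, so nothing is read from it. Some forms in these sums may hold the same molecules.

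Of the 21, 0 passed limma (Benjamini-Hochberg adjusted p below 0.05 over all transcripts) in either direction, where 0.00857% of all transcripts passed as higher and 0.03% as lower. At an unadjusted limma p below 0.05, 11 were higher and 0 lower, against 4.1% and 4.58% of all transcripts. These 11 include all 7 that are named only in the table sorted by p, so the count is not independent of that sorting. The other 4 are named in the tables of modified positions or proteins, and the 7 with no name gave 0. edgeR's quasi-likelihood and exact tests also called 0 of the 21, where they called 0.0622% and 0.242% of all transcripts as higher and 0.182% and 0.568% as lower. DESeq2 gave an adjusted p for 13 of the 21 and called 0 of these 13, against 0.208% higher and 0.402% lower of the 15902 transcripts to which it gave one. The median log2 fold change was 0.44, against 0.00 over all transcripts, and 18 of the 21 were above 0, against 50.7%. Both values include the 7 named only in the table sorted by p, and the 7 with no name had a median of 0.13. Every ammonium library lay above every water library for 9 of the 21 (42.9%, against 7.16% of all transcripts). Since 6 of those 9 were named only in the table sorted by p, the other 14 are counted apart. Of these 14, 3 did not overlap between groups (21.4%) and 11 were above 0. Among the 3, the groups of pp_117803 were 0.0228 CPM apart. This is less than 1 read was worth in C2 (0.205 CPM) or N1 (0.325 CPM), the libraries on either side of that gap. Among the 11, the reads of pp_117801 and pp_117804 differed by at most 5.56% in any library, so this pair may hold the same molecules. Without N1, limma called 3 of the 21, all higher, where 21 of all 46658 transcripts passed as higher and 50 as lower. The limma log2 fold changes were 0.69 for pp_117811 (adjusted p = 0.0433), 0.78 for pp_117814 (adjusted p = 0.0154) and 0.68 for pp_117815 (adjusted p = 0.0481). The reads of pp_117811 and pp_117814 differed by at most 14.2% in any library, so these 2 may hold the same molecules. N1 was the lowest ammonium library in all 3, so leaving it out could only raise their log2 fold changes. Over the alternatives run, limma and count tests together, the adjusted p ran from 0.00249 to 0.828 for pp_117811, from 0.00143 to 0.714 for pp_117814 and from 0.00742 to 0.773 for pp_117815.

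pp_117807, matched to a class I chitinase of lodgepole pine (Pinus contorta), was the most abundant form of both runs and had 37.3% ± 1.49 of their CPM in water and 37.6% ± 3.70 in ammonium (SD, n = 3 each). Class I chitinases differ from class IV forms in lacking several short deletions, and both carry a chitin-binding domain. The class names here are best matches only: pp_117807 is assigned to sp_v3.0_unigene29478, as is pp_117814, which is matched to a class IV form. pp_117807 had 852, 650 and 808 CPM in C1 to C3 and 1004, 859 and 1048 CPM in N1 to N3. Its groups did not overlap, but C1 and N2 were 7.37 CPM apart, and the log2 fold change of 0.34 ± 0.11 (SE) did not pass limma (adjusted p = 0.423). Its ratio to pp_117809 was 13.7, 9.99 and 11.7 in C1 to C3 and 11.6, 7.53 and 8.69 in N1 to N3.

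The next most abundant transcripts of the 2 runs were pp_117813 and pp_117812, which carry no name. pp_117813 had 236, 204 and 257 CPM in C1 to C3 and 204, 278 and 297 CPM in N1 to N3, with overlapping groups and a log2 fold change of 0.15 (limma adjusted p = 0.798). pp_117812 had 153, 150 and 201 CPM in C1 to C3 and 148, 179 and 191 CPM in N1 to N3, and a log2 fold change of 0.05 (limma adjusted p = 0.947). N1 lay below all 3 water libraries in both.

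pp_117811 and pp_117814 followed. pp_117811, a second match to the class I chitinase of lodgepole pine, had 162, 127 and 133 CPM in C1 to C3 and 143, 216 and 235 CPM in N1 to N3. N1 lay within the water range and N2 and N3 above it, and the log2 fold change was 0.47 (limma adjusted p = 0.425). pp_117814, matched to class IV chitinase 4-4 of Douglas-fir (Pseudotsuga menziesii), had 139, 119 and 121 CPM in C1 to C3 and 140, 210 and 224 CPM in N1 to N3, and a log2 fold change of 0.57 (limma adjusted p = 0.271). C1 and N1 were nearly equal in it. The reads of these 2 transcripts differed by at most 14.2% in any library, so they may hold the same molecules.

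Among the other named forms of the first run, pp_117810 had the largest log2 fold change, 1.10, at 2.95 ± 1.72 CPM in water and 7.34 ± 3.24 CPM in ammonium (SD, n = 3 each). pp_117803, a basic endochitinase, had 0.80 at a mean of 1.23 CPM in water, and pp_117805, matched to class IV chitinase A, had 0.71. pp_117815 had 0.51, and pp_117802 and pp_117799, both basic endochitinases, had 0.20 and 0.13. pp_117816, matched to class IV chitinase 4-4, had -0.08 and was the only named form of either run below 0. In the second run, pp_239596 had 1.11 at 0.618 CPM in water and pp_239595 had 0.60. None of these passed limma, and their adjusted p ran from 0.315 for pp_117815 to 0.893 for pp_117816.

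**Figure D3:**
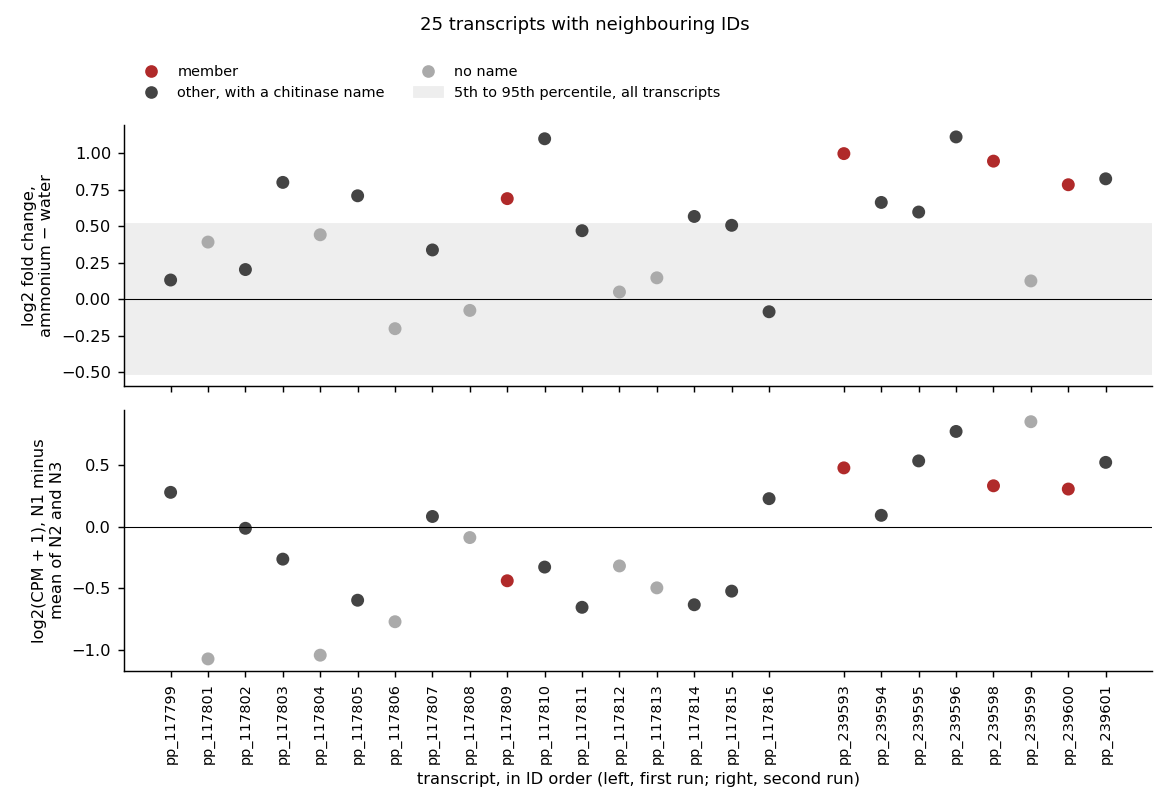
The 25 transcripts of the 2 runs in ID order, with the log2 fold change of CPM + 1, ammonium minus water, above and the log2(CPM + 1) of N1 minus the mean of N2 and N3 below (red, the 4 class IV chitinases, dark, other forms with a chitinase name, light, no name). The grey band is the 5th to 95th percentile of all transcripts, -0.51 to 0.52; in the lower panel the 8 points of the second run lie above 0 and most of the first run below it.

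The study's tables of modified positions and proteins name 12 chitinases beside the 4, of which 7 lie in the first run. Limma called 0 of the 12 in either direction, and 4 were higher and 0 lower at an unadjusted limma p below 0.05, against 4.1% and 4.58% of all transcripts. edgeR's quasi-likelihood and exact tests called 0, and so did DESeq2 among the 10 with an adjusted p. The median log2 fold change was 0.20, against 0.00 over all transcripts, and 11 of 12 were above 0, against 50.7%. In 3 (25.0%, against 7.16%) all ammonium libraries lay above all water libraries, among them pp_117803 by only 0.0228 CPM, less than 1 read. These 3, and the 4 at an unadjusted limma p below 0.05, all lie in the first run and were already counted among the 21. The chitinases outside the runs gave 0 on both counts. Without N1, limma called 1, pp_117815, given above, where 21 of all 46658 transcripts passed as higher and 50 as lower. N1 was the lowest ammonium library of pp_117815, so leaving it out could only raise the log2 fold change. pp_225711 and pp_225714 match a chitinase-like protein that in Arabidopsis is known for its part in cellulose deposition. They differed by at most 0.271% of reads in any library and are read as 1, though the counts and the median over the 12 include both. pp_225714 had 592, 565 and 500 CPM in C1 to C3 and 551, 551 and 577 CPM in N1 to N3, with overlapping groups and a log2 fold change of 0.02 ± 0.09 (SE, limma adjusted p = 0.969). pp_117816 had 137, 129 and 182 CPM in C1 to C3 and 155, 130 and 134 CPM in N1 to N3, with overlapping groups. pp_117799 also overlapped, with 102, 88.6 and 121 CPM in C1 to C3 and 129, 97.9 and 115 CPM in N1 to N3. The 3 chitinases outside both runs and this pair, pp_181056, pp_181057 and pp_181058, had log2 fold changes from 0.18 to 0.61, and each overlapped between groups.

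Chitinases are known to act on fungal walls together with other antifungal proteins, among them the thaumatin-like proteins, which permeabilize fungal membranes, ginkbilobin-2, a small antifungal protein known from ginkgo seeds, and the ribonuclease-like PR-10 proteins. Of 16 transcripts named so in the tables of modified positions and proteins, 15 were in the table. Limma, edgeR's quasi-likelihood and exact tests and DESeq2 called 0 of them, and at an unadjusted limma p below 0.05, 0 were higher and 3 lower, against 4.1% and 4.58% of all transcripts. Their median log2 fold change was 0.02, against 0.00 over all transcripts. All ammonium libraries lay above the water libraries in 0 of the 15 (7.16% of all transcripts) and below them in 1, the ginkbilobin-2 transcript pp_252648 (6.94% of all transcripts). The 6 thaumatin-like transcripts had a median of 0.10, from 0.02 to 0.30. Among them, the reads of pp_234424 and pp_234425 differed by at most 6.67% in any library, so the 6 may include the same molecules more than once. The most abundant, pp_234424, had 307, 310 and 344 CPM in C1 to C3 and 361, 307 and 362 CPM in N1 to N3, a log2 fold change of 0.10 (limma adjusted p = 0.822).

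The 8 ginkbilobin-2 transcripts were among the most abundant here, summing to 13585 ± 3425 CPM in water and 11205 ± 951 CPM in ammonium (SD, n = 3 each). The reads of pp_134774 and pp_134778 differed by at most 8.19% in any library, so these 2 may hold the same molecules and the sum and the counts may include them more than once. The median log2 fold change was -0.23, with 7 of 8 below 0, but under quantile normalization the median was 0.04 and 5 of 8 were above 0. The most abundant, pp_134772, had 3414, 3759 and 4679 CPM in C1 to C3 and 3466, 3174 and 3775 CPM in N1 to N3, with overlapping groups and a log2 fold change of -0.18 (limma adjusted p = 0.695), which was 0.07 under quantile normalization. The 1 PR-10 transcript in the table, pp_134875, had 143, 180 and 126 CPM in C1 to C3 and 186, 173 and 162 CPM in N1 to N3, a log2 fold change of 0.22 (limma adjusted p = 0.653).

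**Figure D4:**
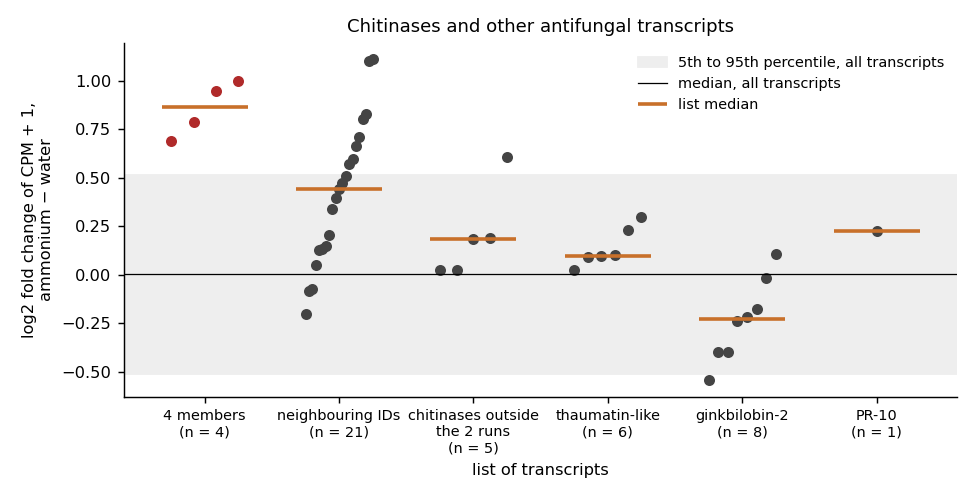
Log2 fold change of CPM + 1, ammonium minus water, for each transcript of the lists, in rising order within a list, with list medians in orange. The 4 class IV chitinases were chosen on this contrast and have a median of 0.87. The neighbouring IDs, 7 of them named only in a table sorted by the p of this contrast, have 0.44. Thaumatin-like transcripts have 0.10 and ginkbilobin-2 -0.23. The grey band is the 5th to 95th percentile of all transcripts.

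Other transcripts of antifungal proteins that the study picked on the same contrast did not all go the way of the class IV chitinases. The paper reports several defence-related transcripts of that list as upregulated, among them forms of the antimicrobial peptide AMP1, a PR-1 protein and a defensin. The few given here are not a full account of that list and are described with no test. pp_127651, thaumatin-like protein L2, had 3.07, 4.91 and 4.86 CPM in C1 to C3 and 11.04, 7.46 and 9.09 CPM in N1 to N3, all ammonium libraries higher, and a log2 fold change of 0.96. pp_181156, thaumatin-like protein 1, had 27.6, 29.5 and 72.0 CPM in C1 to C3 and 19.8, 18.6 and 22.5 CPM in N1 to N3, all ammonium libraries lower, and a log2 fold change of -0.91. pp_245686 encodes a beta-glucanase, an enzyme that cuts the other main polymer of fungal walls and often acts beside chitinases. It had 17.6, 17.8 and 17.2 CPM in C1 to C3 and 13.6, 7.25 and 6.60 CPM in N1 to N3, and a log2 fold change of -0.93. Its 3 ammonium libraries all lay below the water libraries. Of the transcripts for which the study designed RT-qPCR primers, 2 are given as a description. pp_58007, the antimicrobial peptide AMP1, had 550, 485 and 574 CPM in C1 to C3 and 1138, 695 and 703 CPM in N1 to N3, a log2 fold change of 0.62, with N1 the highest as in 7 of the 8 transcripts of the second run. pp_203543, an ammonium transporter of the AMT family, had 23.8, 29.9 and 43.7 CPM in C1 to C3 and 48.7, 37.96 and 46.7 CPM in N1 to N3, with overlapping groups and a log2 fold change of 0.48.

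The profile of the 4 over the 6 libraries, as the mean of their standardized log2(CPM + 1), was set beside 2261 other transcripts that carried a name and had a mean of at least 10 CPM. The libraries and their depths are shared by all points, and many of these names come from the table sorted by p, so the likeness is a description. The 5 with the highest Pearson r (n = 6 libraries) were 3 forms of a xyloglucan endotransglucosylase/hydrolase, an enzyme that cuts and rejoins xyloglucan in the plant cell wall, a flavanone hydroxylase of flavonoid synthesis, and a tyrosine transaminase family protein. The xyloglucan enzyme forms pp_66711, pp_66706 and pp_66709 had r of 0.989, 0.989 and 0.988 and reads that differed by at most 2.22% in any library, and they are read as 1. pp_66711 had 17.6, 17.8 and 19.9 CPM in C1 to C3 and 28.2, 27.3 and 28.9 CPM in N1 to N3, with no overlap and a narrow spread in each group. The flavanone hydroxylase pp_134886 (r = 0.981) had 63.7, 62.6 and 64.0 CPM in C1 to C3 and 70.1, 69.5 and 72.4 CPM in N1 to N3, a small difference with a log2 fold change of 0.15. The transaminase pp_203926 (r = 0.981) had 13.04, 12.5 and 16.3 CPM in C1 to C3 and 23.1, 18.8 and 22.1 CPM in N1 to N3.

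**Figure D5:**
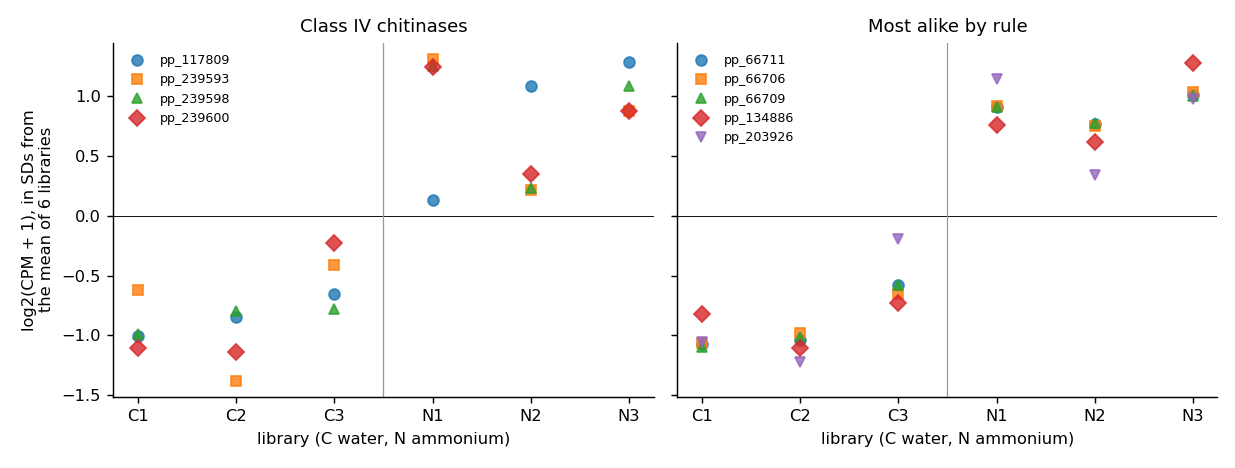
Log2(CPM + 1) in each library in standard deviations from the transcript's own mean over 6 libraries, for the 4 class IV chitinases (left) and the 5 most alike transcripts (right). On the left, pp_117809 sits apart from the other 3 in N1 and N2.

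The 4 were not equally like each other. Over the 6 libraries the 3 forms of the second run had pairwise r from 0.935 to 0.966, and pp_117809 had r from 0.719 to 0.794 with each of them. After each group's mean was taken out, the forms of the second run still varied together, with r from 0.663 to 0.838, while pp_117809 had r from -0.441 to -0.264 with them. Of the other forms, pp_239601 (r = 0.946) and pp_239596 (r = 0.927) were closest to the profile of the 4, and pp_117816 (r = -0.021) and the pair pp_225711 and pp_225714 (r = 0.020 and 0.015) were among the least alike. These are descriptions over 6 libraries.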

How the data were processed

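The authors called bases with Guppy, kept reads of quality over 9, aligned them with minimap2 (k-mer 14) to the root transcriptome and deposited CPM values made with edgeR for transcripts that reached 2 CPM in 2 or more libraries. For the counting program and for versions, the text used here gives nothing. Groups came from the labels. Whole reads were recovered from 100% of values (tolerance 1e-06), and the divisor of the values was 1.003 to 1.045 times the recovered reads but 1.0275 to 1.0276 times the reads multiplied by TMM factors computed here.

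Limma 3.58.1 (R 4.3.3; lmFit and eBayes with a trend) was run on log2(CPM + 1) of all 46658 transcripts with Benjamini-Hochberg adjustment at 0.05, two-sided; a fold change on this scale understates that of low transcripts. As alternatives, the pseudocount was set to 0.25 or 4 CPM, a minimum of 10 CPM in 3 libraries was asked for, quantile normalization was applied, and the recovered reads were fitted with edgeR 4.0.16 and DESeq2 1.42.0 (edgeR with TMM factors called 378 transcripts by the exact and 114 by the quasi-likelihood test). RLE factors, a replicate block, leaving out each library, and leaving out C1 and N1 together were also run. The fits were tested on simulated data. P-values weigh the difference between groups against the spread between these libraries, which each test estimates with help from the other transcripts.

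The members and lists were chosen with earlier results of these data known. Named transcripts were the 4, the named neighbouring IDs, the 5 most abundant of the neighbouring IDs and of the 12 chitinases, the most abundant of each antifungal family, 5 most alike by Pearson r, and transcripts that the study names. Names come from the study's supplementary tables. No sequences of these transcripts were used here.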

Additional observations from a re-analysis of the deposited data

How the results depend on the processing

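The 4 class IV chitinases kept their direction in all 16 alternatives, with a median log2 fold change from 0.74 to 1.01 against 0.87. They were chosen on this contrast and their groups did not overlap. Leaving out libraries, changing the pseudocount or adding a replicate block could therefore not turn the sign. The number of all transcripts that passed was 18 in the main test and depended on the setting. It was 97 with DESeq2, 378 with edgeR's exact test, 114 and 117 with edgeR's quasi-likelihood test (TMM and RLE), 49 with the replicate block and 352 without C1 and N1. Leaving out 1 library gave from 0 (without C2) to 71 (without N1), and the others gave 5 (N2), 5 (N3), 29 (C1) and 26 (C3). In the neighbouring IDs 0 passed, 5 without C1 and N1 (pp_117805, pp_117811, pp_117814, pp_117815 and pp_239594), and from 0 to 3 with 1 library left out. N1 was the lowest ammonium library in pp_117805, pp_117811, pp_117814 and pp_117815, so leaving it out could only raise their log2 fold changes. In the 12 chitinases 0 passed, 2 without C1 and N1 (pp_117805 and pp_117815), and from 0 to 1 with 1 left out. In the other antifungal proteins 0 passed, 2 without C1 and N1, both lower (pp_252648 at -0.69 and pp_252650 at -0.71, limma adjusted p = 0.0281 and 0.0173), and their median moved from 0.02 to -0.21. The cause was not tested. With C1 and N1 left out, a group holds 2 libraries.

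Over all transcripts, deviations from the group means correlated at -0.002, 0.056 and -0.009 for same-numbered pairs 1, 2 and 3. For other pairs they ran from -0.039 to 0.037. Counting error of low transcripts enters these values. The paper reports independent repeats of the experiment, and the correlations cannot show whether the numbers follow those repeats. The main test did not pair the libraries. The replicate block called 49 transcripts in place of 18 and called 0 in each of the lists. 

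With 1 library left out, some log2 fold changes near 0 changed sign. They ran from -0.025 to 0.19 for pp_117812 (below 0 without N3, C1 or C2), from -0.048 to 0.074 for pp_225714, from -0.048 to 0.076 for pp_225711 and from -0.033 to 0.35 for pp_117802 (each below 0 without C3), and from -0.18 to 0.065 for pp_117816 (above 0 without C3). With quantile normalization pp_134772 had 0.070. The filter of 10 CPM left out low transcripts of the neighbouring IDs and of the 12 chitinases, so it gave no median there. At 3 reads a transcript had 2.30 CPM in C1 and 0.535 CPM in N3, and C1 held 1 read of pp_239596 and of pp_117803.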
